A study of Hordeum vulgare with 12 samples.

Results

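miR171 is a plant microRNA (miRNA) family whose sequences were compared here between root and shoot and between the 5p and 3p arms of the hairpin they are cut from, in barley given a normal or an excess nitrogen supply. A listed sequence was taken as miR171 when its deposited names gave miR171 more often than any other family number, which held for 56 of the 3258 listed sequences. Of these 56, 29 belong to the 3p arm and 27 to the 5p arm. The names gave the arm for 41 of them, and for the other 15 it was read from the letters. 37 of the 56 had no count in any library, and 19 were counted.

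The 3p strand of miR171 guides the cutting of messenger RNAs for GRAS transcription factors of the HAIRY MERISTEM (SCARECROW-LIKE) group, which keep shoot and root meristems supplied with undifferentiated cells. In barley, plants engineered to make more miR171 change growth phase late and form altered floral meristems. The 5p strand lies opposite in the hairpin duplex and is usually the less stable strand, although in Arabidopsis the 5p strand of MIR171A silences a gene of the SUVH histone methyltransferase group. In Medicago truncatula, a family member that starts further along the hairpin, miR171h, acts on NSP2, a GRAS factor needed for root symbioses.

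The plants were the spring barley cultivar Golden Promise (Hordeum vulgare), grown in perlite and collected at an age of 2 weeks. Controls received a medium with 28 mM NH4NO3, and the nitrogen-excess plants the same medium with 280 mM. Shoots and roots were sampled apart, which gives 4 groups (control shoot, nitrogen-excess shoot, control root and nitrogen-excess root), each of 3 biological replicates and 12 small RNA libraries in all. No label says whether equal numbers mark the same plants. The tissues are mixtures of cells, so fewer cells of a type and less RNA per cell cannot be told apart.

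The counts over all listed sequences ranged from 245176 (nitrogen-excess shoot 3) to 2246495 (nitrogen-excess shoot 1) per library, and miR171 took from 0.181% to 0.651% of them. Levels below are CPM, the usual scale of counts relative to the library total, after TMM scaling, which sets libraries to a common scale by a trimmed mean of their ratios. The scaling factors ranged from 0.369 to 1.82, so levels depend on the scaling, whereas shares within a library do not.

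A pair of libraries did not lie with their labelled tissue. On an axis drawn from 170 sequences of other families, each library was set against the means of the other libraries labelled shoot (0) and root (1). The other 5 shoot libraries lay between -0.33 and 0.05. The other 5 root libraries lay between 0.79 and 1.38. Of the remaining libraries, the one labelled nitrogen-excess shoot 3 was placed at 1.05 and the one labelled control root 3 at -0.18. All values keep the labels, and the main results are also given over the 10 libraries without these. Since they were set apart by their closeness to the other tissue, a root-against-shoot test over the 10 libraries is not independent of that choice, and its p-values describe those libraries only.

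7 sequences reached at least 10 counts in a library, and together they held 99.9% of the 60758 miR171 counts. They are shown here, written 5′ to 3′ with T as deposited, because the arms and the tissues divide along them. The capitals mark bases 2 to 8, called the seed here, and no targets were read from them. The first 3 are 3p strands and the last 4 are 5p strands, and all are 21 nt long.
ata-miR171a-3p: tGAGCCGAaccaatatcactc
hvu-miR171-3p: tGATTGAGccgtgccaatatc
ata-miR171c-3p: tTGAGCCGtgccaatatcacg
osa-miR171e-5p: tGTTGGCTcggctcactcaga
hvu-miR171-5p: tGTTGGCTcgactcactcaga
ata-miR171c-5p: cGGTATTGgtgcggttcaatc
osa-miR171f-5p: tGTTGGCAtggttcaatcaaa

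The prefix is that of 1 of the names deposited with each sequence (hvu stands for barley, ata for Aegilops tauschii, osa for rice). The 3 strands from the 3p arm share the letters GAGCCG in 3 registers. GAGCCG begins at base 2 in ata-miR171a-3p, at base 3 in ata-miR171c-3p and at base 6 in hvu-miR171-3p, so each has a seed of its own. It occurs in 27 of the 29 listed 3p members, in 0 of the 27 5p members and in 4 of the 3202 other listed sequences (0.125%).

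With 30 names from 10 species, against 20 names from 10 species for ata-miR171c-3p, hvu-miR171-3p carries the most names. Counted from 1 at its 5′ end, ata-miR171a-3p starts 4 bases further along and differs by T12A and G13A (base of hvu-miR171-3p, position, base of ata-miR171a-3p). ata-miR171c-3p starts 3 bases further along and has 0 differences over the shared letters, so reads of these strands are told apart by their ends only.

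On the 5p side, osa-miR171e-5p and hvu-miR171-5p share their seed and differ by the single substitution G11A, counted from the 5′ end of osa-miR171e-5p. No source used here says how many mismatches the counting allowed, and reads of these strands may therefore be shared. Laid against hvu-miR171-3p with the usual 2-base overhang, osa-miR171e-5p paired at 17 of 19 positions, hvu-miR171-5p at 16 of 19 and osa-miR171f-5p at 19 of 19, counting G:U pairs. ata-miR171c-5p paired with ata-miR171c-3p at 18 of 19. This pairing is a property of the letters and does not place the strands on a barley precursor. Genome positions are not given, because no barley genome sequence was used here.

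The most abundant miR171 sequence, ata-miR171a-3p, had 33003 counts, 54.3% of all miR171 counts. The listed strand with which its name pairs it, ata-miR171a-5p, had 0 counts in all 12 libraries. A count of 0 allows up to 0.00909% of the 33003. That limit covers this listed sequence only, and strands outside the list have no counts to read. Limits and intervals of this kind cover counting error alone. No source used here names molecular identifiers, so the reads cannot be taken as independent molecules.

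The other 12 counted members held 74 counts in all and at most 6 in a library. The largest was mtr-miR171c with 27 counts, which has the seed of hvu-miR171-3p and differs from it by C21T. bdi-miR171f with 11 counts and mtr-miR171g with 9 counts have the seed of ata-miR171a-3p. The mtr-miR171g sequence, which also carries the name of the Medicago miR171h described above, differs from ata-miR171a-3p by T1C and C10T. Libraries labelled root held 8 of its 9 counts, and 6 of those came from nitrogen-excess root 3 alone. At the threshold of 10 counts, osa-miR171f-5p was the least abundant member shown (59 counts in all, at most 28 in a library).

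The make-up of miR171 differed between the tissues. In the 5 shoot libraries that lay with shoot, ata-miR171a-3p held 4.36% to 10.03% of the miR171 counts, and in the 5 root libraries that lay with root 66.4% to 95.9%. osa-miR171e-5p led in those shoots, with 31.9% to 67.5%, and held 0.975% to 19.3% in those roots. The library labelled nitrogen-excess shoot 3 had 91.0% ata-miR171a-3p (95% Wilson interval 89.4% to 92.5%, 1304 miR171 counts), within the range of the roots. The library labelled control root 3 had 5.83% ata-miR171a-3p and 58.5% osa-miR171e-5p, within the range of the shoots.

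**Figure D1:**
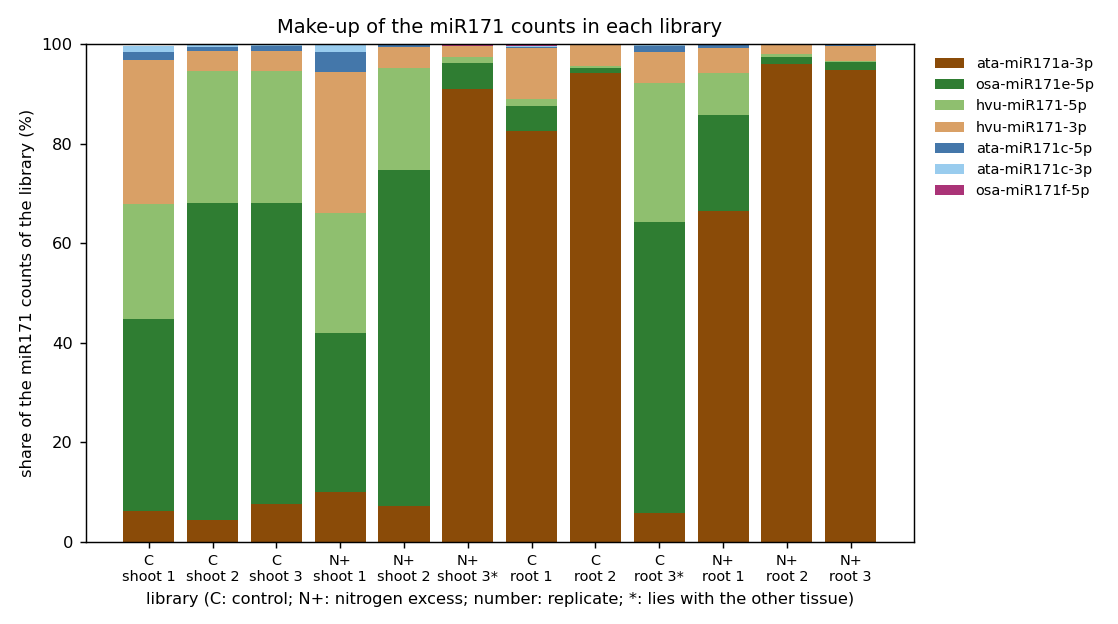
Share of each of the 7 miR171 sequences (y axis, percent of the miR171 counts of a library) in the 12 libraries (x axis, by labelled group and replicate). ata-miR171a-3p fills 66.4% to 95.9% of the bars of the 5 root libraries without an asterisk and 4.36% to 10.03% of the 5 shoot libraries without one; the libraries with an asterisk show the reverse.

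The 3p arm as a whole followed ata-miR171a-3p. Over all libraries, 62.0% of miR171 counts were 3p (37677 of 60758). In replicate order, the control shoots had a 3p share of 36.4%, 8.80% and 12.1% and the nitrogen-excess shoots one of 40.0%, 11.6% and 93.4%. The control roots had 92.9%, 98.4% and 12.4% and the nitrogen-excess roots 71.6%, 97.8% and 98.1%. Roots were mostly 3p and shoots mostly 5p, with replicate 3 of nitrogen-excess shoot and of control root the other way round.

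The group means were 19.1% ± 15.1 in control shoot, 48.3% ± 41.6 in nitrogen-excess shoot, 67.9% ± 48.1 in control root and 89.2% ± 15.2 in nitrogen-excess root (SD, n = 3 each). Neighbours in this order overlapped. Over the 10 libraries the 3p share was 21.8% ± 15.1 in shoot and 91.8% ± 11.5 in root (SD, n = 5 each), and the highest shoot (40.0%) lay below the lowest root (71.6%). Wilson intervals of single libraries were at most a few percent wide, far narrower than the spread between replicates. No test was made on these shares, because they are sums over the chosen sequences.

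**Figure D2:**
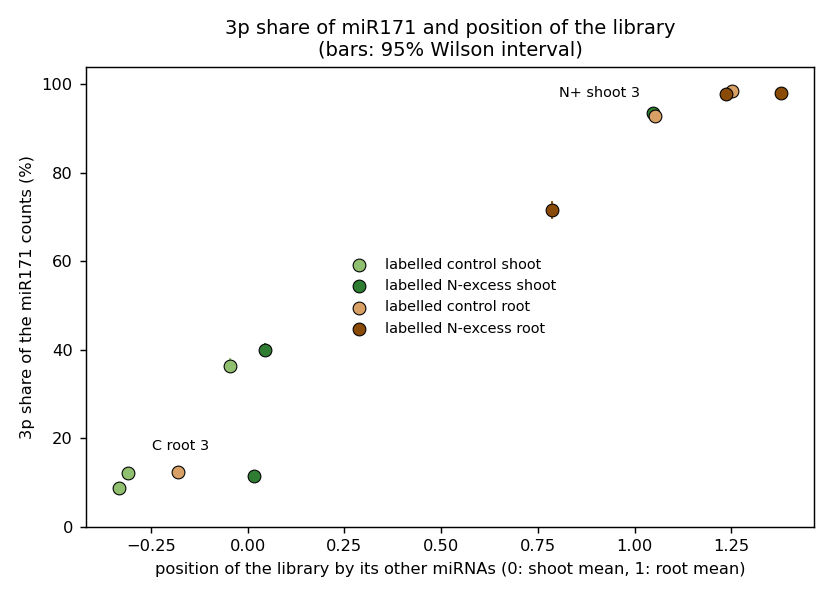
3p share of the miR171 counts (y axis, percent, with 95% Wilson intervals) against the position of each library on the shoot-to-root axis of 170 other sequences (x axis, 0 and 1 being the means of the other libraries labelled shoot and root). The library labelled nitrogen-excess shoot 3 (93.4%, position 1.05) lies among the roots and the library labelled control root 3 (12.4%, position -0.18) among the shoots.

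Without ata-miR171a-3p, the arms no longer separated the tissues. The 3p share of the remaining counts then ran from 4.64% to 33.3% in the 5 shoots and from 15.5% to 73.4% in the 5 roots, with nitrogen-excess root 1 (15.5%) below control shoot 1 (32.3%) and nitrogen-excess shoot 1 (33.3%). The shoot values fell into a high and a low set that followed the naming series of the libraries. Library names put replicate 1 of every group in a first series (A), most other libraries in a second (B) and nitrogen-excess root 3 in one of its own (C). In series A the shoot values were 32.3% and 33.3%, and in series B the 3 shoots that lay with shoot had 4.64% to 4.79%.

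The ratio of the barley strands showed this most directly. hvu-miR171-5p over hvu-miR171-3p was 0.807 and 0.843 in the series A shoots, against 6.77, 6.64 and 4.74 in control shoot 2, control shoot 3 and nitrogen-excess shoot 2. In root the ratio was 0.144 in control root 1, 0.106 in control root 2, 1.70 in nitrogen-excess root 1, 0.338 in nitrogen-excess root 2 and 0.0912 in nitrogen-excess root 3. In the 5 shoots that lay with shoot, hvu-miR171-3p exceeded hvu-miR171-5p in series A and fell below it in series B, under either nitrogen supply. The 5p arm as a whole held 60.0% to 91.2% of the miR171 counts in these 5 shoots, so the change of side concerns the barley strands only. Series A is replicate 1 of every group, and the part of the series in the arm shares was not tested. The ratio of the barley strands was 4.48 in the library labelled control root 3 and 0.643 in the library labelled nitrogen-excess shoot 3.

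The 5p pair kept its order. osa-miR171e-5p exceeded hvu-miR171-5p in every library, by 1.33-fold (nitrogen-excess shoot 1) to 5.21-fold (nitrogen-excess root 3), with a mean of 2.69 ± 1.05 (SD, n = 12). The range in shoot, 1.33 to 3.67, overlapped that in root, 2.10 to 5.21, as did the ranges of the 5 shoots (1.33 to 3.31) and 5 roots (2.21 to 5.21) that lay with their tissue.

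The 3p strand ata-miR171a-3p was the root-high sequence. The control shoots held 119, 154 and 221 CPM and the nitrogen-excess shoots 99.9, 263 and 5228 CPM. The control roots held 9895, 12071 and 128 CPM and the nitrogen-excess roots 3129, 11594 and 4121 CPM. Apart from replicate 3 of nitrogen-excess shoot and of control root, every root library stood above every shoot library. The group means fell in the order control root (7365 ± 6361), nitrogen-excess root (6282 ± 4628), nitrogen-excess shoot (1864 ± 2915) and control shoot (165 ± 51.8; SD, n = 3 each), and each group overlapped its neighbour in that order.

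Over the 12 libraries, ata-miR171a-3p was higher in root by a log2 fold change of 3.62 ± 1.04 (SE), with an adjusted p of 0.0412 in edgeR's quasi-likelihood test. It was the single miR171 sequence called among 7 tested, where 15 of 177 sequences (8.47%) were called higher in root and 0 (0%) lower. In the same 177 sequences DESeq2 called 30 higher and 9 lower, and edgeR with equal totals, the replicate block or the naming series as a term called 0. The median of all sequences tested stood at 0.20, and relative to it ata-miR171a-3p stood at 3.41. With equal totals in place of TMM that median moved to -0.48, and ata-miR171a-3p stood at 2.44 with an adjusted p of 0.16, or 2.92 relative to the median.

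The call depended on which library was left out, as did those of the other sequences. It was kept in 5 of the 12 fits that left out 1 library. Among those fits the log2 fold change reached 5.15 and the lowest adjusted p was 0.0045 (edgeR). It was lost without control shoot 1 (adjusted p = 0.128), control shoot 2 (0.0691), control shoot 3 (0.0943), nitrogen-excess shoot 1 (0.0892), nitrogen-excess shoot 2 (0.0924), control root 2 (0.0721) or nitrogen-excess root 3 (0.0677) in the same edgeR test, with log2 fold changes of 3.16 to 3.80. Those fits called 0 sequences of any family, except the fit without nitrogen-excess root 3, which called 3 of 177. With the replicate number as a block ata-miR171a-3p stood at 4.07 ± 1.32 (adjusted p = 0.0913, edgeR). With the naming series as a term it stood at 4.01 ± 1.15 (adjusted p = 0.071, edgeR). Within series B alone its log2 fold change was 3.38. That series holds both libraries that lay with the other tissue, and its only nitrogen-excess root library is replicate 2. Series A holds 1 library a group and gives no test; its levels were 119 and 99.9 CPM in shoot and 9895 and 3129 CPM in root.

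Over the 10 libraries, ata-miR171a-3p averaged 171.5 ± 69.1 CPM in shoot and 8162 ± 4234 CPM in root (SD, n = 5 each), 47.6-fold apart after TMM scaling. Its log2 fold change was 5.43 ± 0.62 (adjusted p = 3.48e-05, edgeR), and it was called in each of the 10 fits that left out 1 more library (5.05 to 5.90). The size of this difference depends on the scaling. Except for nitrogen-excess root 3, these roots had lower TMM factors than all of these shoots, which raises their CPM. With equal totals the median of all sequences tested over the 10 libraries moved from 0.14 to -1.003. The ranges, 99.9 to 263 CPM and 3129 to 12071 CPM, did not overlap. That was so for 42 of 177 sequences (23.7%) at 5 against 5, of which 31 (17.5%) were higher in root and 11 (6.21%) lower. At 6 against 6, 1 of 177 sequences (0.565%) had ranges apart, with 0 (0%) higher and 1 (0.565%) lower in root, and no miR171 sequence was among them.

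**Figure D3:**
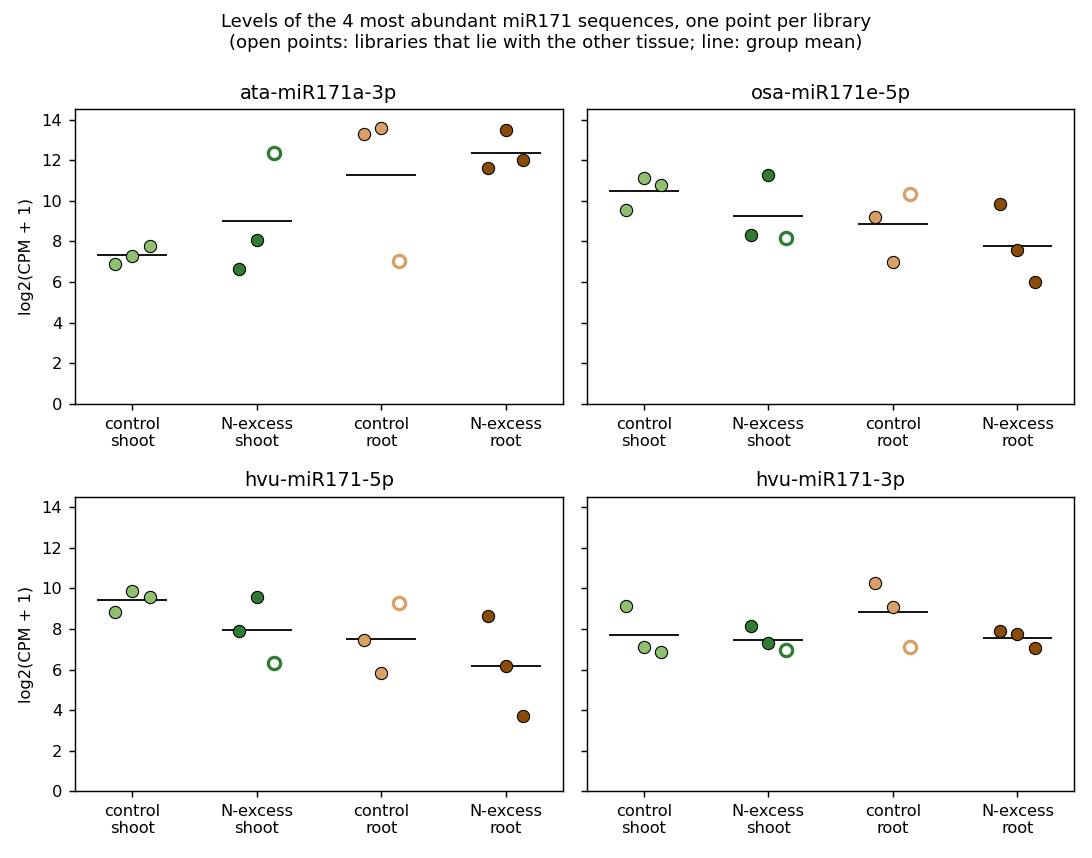
Levels of the 4 most abundant miR171 sequences, as log2(CPM + 1) on the y axis, in each library of the 4 labelled groups on the x axis, with a line at the group mean of n = 3. For ata-miR171a-3p the open points, the libraries labelled nitrogen-excess shoot 3 (5228 CPM) and control root 3 (128 CPM), lie at the level of the other tissue.

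The shoot-high sequences were the 5p strands osa-miR171e-5p and hvu-miR171-5p. The control shoots held 758, 2243 and 1743 CPM of osa-miR171e-5p and the nitrogen-excess shoots 318, 2475 and 291 CPM. The control roots held 590, 125 and 1285 CPM and the nitrogen-excess roots 908, 187 and 63.3 CPM. Group means ran from control shoot (1581 ± 755) through nitrogen-excess shoot (1028 ± 1253) and control root (667 ± 584) to nitrogen-excess root (386 ± 456; SD, n = 3 each), with every neighbouring pair overlapping. The highest root library was the one labelled control root 3 and the lowest shoot library the one labelled nitrogen-excess shoot 3.

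hvu-miR171-5p ran in the same order at a lower level. It stood at 457, 937 and 768 CPM in control shoot, 239, 748 and 79.3 CPM in nitrogen-excess shoot, 177, 56.6 and 612 CPM in control root, with 403, 72.2 and 12.2 CPM in nitrogen-excess root. Over the 12 libraries neither strand was called: osa-miR171e-5p had a root-against-shoot log2 fold change of -1.33 ± 0.80 (adjusted p = 0.312) and hvu-miR171-5p one of -1.25 ± 0.82 (adjusted p = 0.361, edgeR). Without the library labelled control root 3 both were called, at -2.40 ± 0.85 (adjusted p = 0.04) and -2.50 ± 0.85 (adjusted p = 0.0387), where 31 of 186 sequences were called higher in root and 23 (12.4%) lower. That library is one of those set apart by their placement.

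Over the 10 libraries both 5p strands were lower in root, osa-miR171e-5p at -2.23 ± 0.81 (adjusted p = 0.0492) and hvu-miR171-5p at -2.31 ± 0.81 (adjusted p = 0.0417, edgeR). Mean levels were 4.02-fold and 4.37-fold higher in shoot, and the ranges still overlapped. Nitrogen-excess root 1 (908 CPM of osa-miR171e-5p) and control root 1 (590 CPM) lay above nitrogen-excess shoot 1 (318 CPM). At 10 libraries, 42 of 183 sequences (23%) were called higher in root and 18 (9.84%) lower. With equal totals the split was 27 higher and 56 lower and the median of all tested moved from 0.14 to -1.003.

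These calls, too, depended on single libraries. In the 10 fits that left out 1 more library, osa-miR171e-5p was called in 3 (without nitrogen-excess shoot 1, control root 1 or nitrogen-excess root 1) and hvu-miR171-5p in 2 (without nitrogen-excess shoot 1 or nitrogen-excess root 1). The weakest fit for osa-miR171e-5p, without nitrogen-excess shoot 2, gave -1.04 (adjusted p = 0.356). The weakest for hvu-miR171-5p by adjusted p, without control root 2, gave -1.91 (adjusted p = 0.187, edgeR). With the naming series as a term, osa-miR171e-5p stood at -1.79 ± 0.91 (adjusted p = 0.128) and hvu-miR171-5p at -2.02 ± 0.72 (adjusted p = 0.0353).

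hvu-miR171-3p, the 3p form with the most names, was not called between the tissues. It stood at 566, 138 and 116 CPM in control shoot, 284, 158 and 123 CPM in nitrogen-excess shoot, 1222, 535 and 137 CPM in control root, with 238, 213 and 133 CPM in nitrogen-excess root. Replicate 1, the series A library, was the highest in every group. Root against shoot gave 0.62 ± 0.64 (adjusted p = 0.558) over 12 libraries and 0.69 ± 0.51 (adjusted p = 0.338) over 10, and with equal totals the sign turned (-0.48 and -0.59, edgeR). The balance of these 3p strands differed between the tissues: ata-miR171a-3p over hvu-miR171-3p ranged from 0.21 to 1.91 in the 5 shoots and from 8.10 to 54.3 in the 5 roots.

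The remaining 3 sequences had at most 163 counts in a library. ata-miR171c-5p had 48, 72 and 57 counts in control shoot, 163, 16 and 0 in nitrogen-excess shoot, 22, 1 and 32 in control root, with 9, 2 and 5 in nitrogen-excess root. Its only 0 was the library labelled nitrogen-excess shoot 3, where 1 count was worth 4.404 CPM. It was not called, at -0.87 ± 0.85 over 12 libraries (adjusted p = 0.546) and -1.45 ± 0.80 over 10 (adjusted p = 0.195, edgeR). Over 10 libraries the replicate block called it at -1.92 (adjusted p = 0.0216, edgeR), with 47 of 183 sequences called higher and 26 lower. It was also called in 1 of the 10 fits that left out 1 more library (adjusted p = 0.0185, edgeR). Those 10 fits called from 45 to 70 sequences.

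ata-miR171c-3p had 38, 31 and 17 counts in control shoot, 52, 2 and 1 in nitrogen-excess shoot, 7, 2 and 7 in control root, with 3, 2 and 0 in nitrogen-excess root. It was not called either, at -1.18 ± 0.86 (adjusted p = 0.443) over 12 and -1.39 ± 0.90 (adjusted p = 0.276, edgeR) over 10. Unlike those of the other 3p strands, both of its fitted values lay on the shoot side. With equal totals over 10 libraries both ata-miR171c strands were called lower in root, ata-miR171c-5p at -2.68 (adjusted p = 0.023) and ata-miR171c-3p at -2.76 (adjusted p = 0.0278, edgeR), where 56 of 183 sequences (30.6%) were called lower. Relative to the median of all sequences tested, these values were -1.68 and -1.75, against -1.58 and -1.52 with TMM.

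osa-miR171f-5p was the 5p strand with a fitted value on the root side. It had 2, 0 and 0 counts in control shoot, 0, 0 and 2 in nitrogen-excess shoot, 28, 7 and 0 in control root, with 1, 4 and 15 in nitrogen-excess root. These counts are too few to place a library with a tissue. The library labelled nitrogen-excess shoot 3 had 2, as had control shoot 1, and the one labelled control root 3 had 0. Having at most 2 counts in any shoot, osa-miR171f-5p passed the filter on low counts through root libraries alone. Its fitted differences are therefore a description and no test. They were 3.76 ± 1.37 over 12 libraries and 5.98 ± 1.06 over 10, values that depend on the prior count because most shoots had no count. In the 10 libraries the lowest root had 1 count and the highest shoot 2 counts, so the separation of their CPM (at least 2.67 in root, at most 1.31 in shoot) rests on very few reads.

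**Figure D4:**
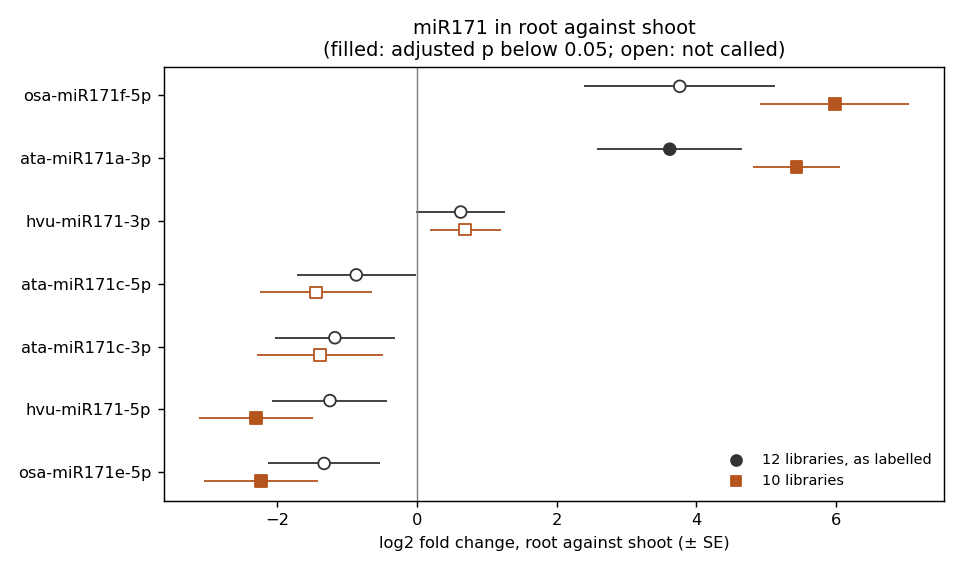
Root-against-shoot log2 fold change with its SE (x axis) for the 7 miR171 sequences (y axis), over 12 libraries as labelled (circles) and over 10 (squares), filled where the adjusted p was below 0.05. Filled are ata-miR171a-3p (3.62) over 12 libraries and, over 10, ata-miR171a-3p, both shoot-side 5p strands and osa-miR171f-5p, whose point is a description since it passed the filter through root libraries alone.

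Within a condition the tissues gave fewer calls. In control plants ata-miR171a-3p stood at 5.48 ± 1.61 (adjusted p = 0.0691) and in nitrogen-excess plants at 1.76 ± 1.37 (adjusted p = 0.733), with 0 of 177 sequences called (0%) in either. Without the libraries labelled nitrogen-excess shoot 3 and control root 3 it was called in both, at 5.98 ± 0.80 (adjusted p = 0.000204) and 4.89 ± 0.89 (adjusted p = 0.00502, edgeR). There 34 of 183 sequences (18.6%) were called higher in root in control plants and 29 (15.8%) in nitrogen-excess plants, and the calls in each held ata-miR171a-3p and osa-miR171f-5p, the latter through its root counts alone.

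An interaction term compared the tissue contrasts of control and nitrogen-excess plants, and it called 0 of 177 sequences (0%). For ata-miR171a-3p the interaction was -3.73 ± 1.94 (adjusted p = 0.993, edgeR) over 12 libraries and -1.09 ± 0.99 (adjusted p = 0.889) over 10. Without the library labelled nitrogen-excess shoot 3 alone it was -0.51 ± 1.58. For osa-miR171e-5p the interaction was -0.17 ± 1.57 and for hvu-miR171-5p 0.21 ± 1.62 (adjusted p = 0.993 for both, edgeR). Over 10 libraries they were 0.63 ± 1.56 (adjusted p = 0.967) and 1.27 ± 1.57 (adjusted p = 0.889), intervals too wide to exclude a difference of several fold.

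Summed over all its members, miR171 was not called between the tissues over 12 libraries. On the scale of family totals, which is not that of single sequences, it stood at 2135, 4236 and 4209 CPM in control shoot, 1006, 4714 and 5472 CPM in nitrogen-excess shoot, 8433, 11963 and 2199 CPM in control root, with 4588, 8128 and 4283 CPM in nitrogen-excess root. Root against shoot gave 0.85 ± 0.54 (adjusted p = 0.252), where 10 of 74 families (13.5%) were called higher in root. Over 10 libraries it was called at 1.55 ± 0.54 (adjusted p = 0.0248, edgeR), where 26 of 78 families (33.3%) were called higher.

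That family call was lost without control shoot 1, nitrogen-excess shoot 1, control root 1, control root 2, nitrogen-excess root 1 or nitrogen-excess root 2, with values of 0.80 to 1.35. With equal totals it stood at 0.48 (adjusted p = 0.436, edgeR). ata-miR171a-3p and both 5p strands, whose root-against-shoot values have opposite signs, enter the same sum.

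No miR171 sequence was called under nitrogen excess by edgeR's test in either tissue. In shoot 6 miR171 sequences were tested and 0 were called, as were 0 of all 148 sequences (0%). In edgeR's test 15 of the 148 had an unadjusted p below 0.05, ata-miR171a-3p among them at 0.0166. In root 5 were tested and 0 called, as were 0 of all 146 (0%), of which 1 had an unadjusted p below 0.05. DESeq2 called 8 of 148 sequences higher in shoot (5.41%) and 0 of 146 in root.

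The largest shoot value was that of ata-miR171a-3p, 3.23 ± 1.22 (adjusted p = 0.245, edgeR), and it rested on a single library. DESeq2 called it, at 3.24 ± 1.08 (adjusted p = 0.0489). Its levels of 99.9 and 263 CPM in nitrogen-excess shoot 1 and 2 lay just below and just above the 119 to 221 CPM of the controls, while the library labelled nitrogen-excess shoot 3 held 5228 CPM. Without that library the log2 fold change was 0.03 ± 0.72 (adjusted p = 0.986, edgeR). The authors' deposited table gives 2.92 with an adjusted p of 0.0717 for this sequence in shoot.

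The other shoot values were all negative, and none was called. osa-miR171e-5p stood at -0.74 ± 0.98, hvu-miR171-5p at -1.14 ± 0.94, hvu-miR171-3p at -0.58 ± 0.86, ata-miR171c-5p at -0.66 ± 0.89 and ata-miR171c-3p at -1.22 ± 0.86, with adjusted p from 0.583 to 0.878 (edgeR). Without the library labelled nitrogen-excess shoot 3 they lay between -0.19 and -1.06. The median of all sequences tested was -0.07.

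In root the fitted values were negative as well, and the median of all sequences tested was -0.27. hvu-miR171-3p lay furthest from 0, at -1.68 ± 0.99 (adjusted p = 0.955, edgeR), and without the library labelled control root 3 at -2.08 ± 0.80 (adjusted p = 0.604). Its 3 nitrogen-excess libraries (238, 213 and 133 CPM) lay below control root 1 and 2 (1222 and 535 CPM) and around the library labelled control root 3 (137 CPM). ata-miR171a-3p stood at -0.22 ± 1.22, osa-miR171e-5p at -0.79 ± 1.16, hvu-miR171-5p at -0.81 ± 1.27 and ata-miR171c-5p at -1.28 ± 1.25 (adjusted p = 0.955 each, edgeR). Without the library labelled control root 3 both 5p strands turned positive, at 0.13 ± 1.03 and 0.45 ± 1.16, and osa-miR171f-5p, then tested too, stood at -2.26 ± 1.16 (adjusted p = 0.604).

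None of the 7 sequences had all nitrogen-excess libraries above or below all controls in either tissue. Such a separation was found for 21 of 148 sequences (14.2%) in shoot and 12 of 146 (8.22%) in root. The family total stood at 0.74 ± 0.82 in shoot (adjusted p = 0.664, with 5 of 57 families or 8.77% called and a family median of 0.60) and at -0.33 ± 0.79 in root (adjusted p = 0.981, edgeR, with 0 of 65 families or 0% called). The family calls in shoot depended on the scaling: in edgeR 0 of 57 families were called with DESeq2's size factors (family median 0.0083) or equal totals (-0.24). Leaving out nitrogen-excess shoot 3 gave a shoot value of -0.21 ± 0.76. A difference that misses the threshold is not shown to be absent: the standard error of ata-miR171a-3p in root, 1.22 on the log2 scale, spans more than a doubling.

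**Figure D5:**
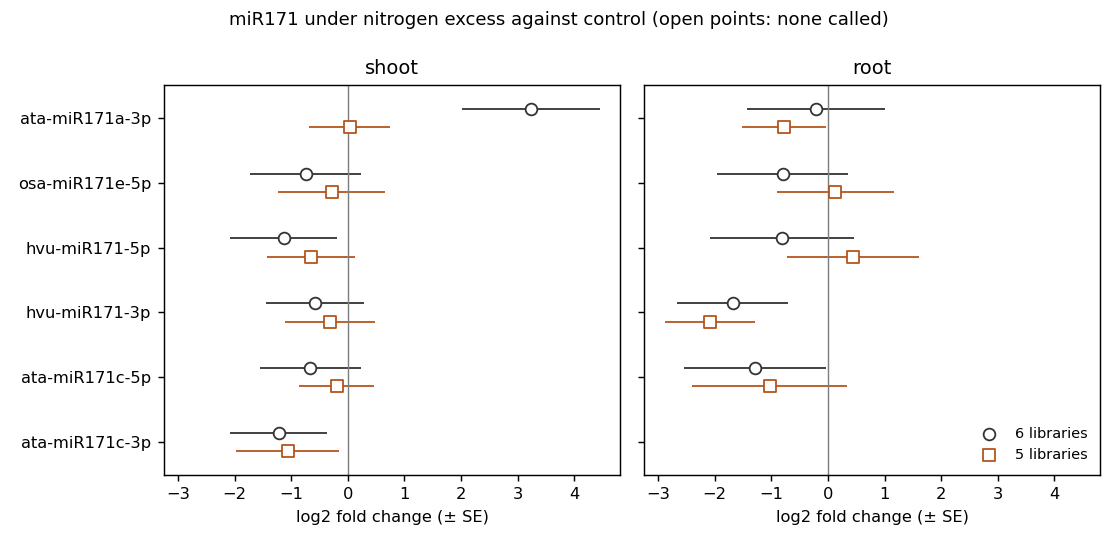
Nitrogen-excess-against-control log2 fold change with its SE (x axis) for the miR171 sequences tested (y axis), in shoot (left) and root (right), over 6 libraries (circles) and without the library that lay with the other tissue (squares). ata-miR171a-3p in shoot moves from 3.23 to 0.03 between them, and no point is called.

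Sequences of other families with the level pattern most like the leading strands were found by Spearman's rho over the 12 libraries, given as a description since all values share the libraries, their scaling and the tissue contrast. Nearest to ata-miR171a-3p were hvu-miR6187 (rho 0.93), hvu-miR6214 (0.90) and ppt-miR894 (0.90). hvu-miR6187 averaged 0.923 CPM in shoot and 31.3 CPM in root, and was listed at 0 in the library labelled control root 3. Nearest to osa-miR171e-5p were hvu-miR6201 (0.94), ata-miR166c-5p (0.92) and ata-miR5168-5p (0.92). hvu-miR6201 averaged 457 CPM in shoot and 227 CPM in root. Over the 10 libraries the rho of these 6 sequences lay between 0.89 and 0.93.

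Other miRNA families that act on meristems, leaf and root patterning and growth phase were counted as one list: miR156, miR157 and miR172, which time the growth phases, miR159 and miR319, miR164, miR165 and miR166, miR394 and miR396. Of 58 sequences tested between root and shoot, 2 were called higher in root and 0 lower, with a median of 0.07 against 0.20 over all sequences, of which 8.47% were called higher and 0% lower. Over 10 libraries 10 were higher and 5 lower, with a median of -0.03 against 0.14 over all sequences, of which 23% were called higher and 9.84% lower.

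Under nitrogen excess 0 of 55 sequences of the list were called in shoot, as were 0 of all 148 (0%). The list median there was -0.27, against -0.07 over all sequences. In root 0 of 48 sequences of the list were called, as were 0 of all 146 (0%). There the median was -0.54 in the list, against -0.27 over all sequences. The most abundant, hvu-miR166b, which targets HD-ZIP III factors of leaf and root patterning, stood at 1.32 ± 0.54 between root and shoot (adjusted p = 0.135) and at 1.66 ± 0.42 over 10 libraries (adjusted p = 0.00677). The next, hvu-miR159b, which targets GAMYB factors, stood at -0.37 ± 0.69 (adjusted p = 0.833, edgeR) and at -0.45 ± 0.60 over 10 libraries (adjusted p = 0.66). Over the 10 libraries the log2 difference of ata-miR171a-3p, 5.43, was larger than that of either.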

How the data were processed

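Small RNA libraries from 12 barley samples were analysed from the authors' deposited tables, one per tissue, which list the same sequences with their plant miRNA names. The counts, as deposited, are whole and not normalized. The deposited signal columns hold counts divided by a factor per library. The submitters' processing notes name DESeq2. The deposited log2 fold change and p-value columns are the authors' own comparison, per the file headers. No source used here gives trimming, mapping or mismatches.

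All listed sequences were fitted together in edgeR 4.0.16 (R 4.3.3): TMM scaling, filterByExpr (minimum count 10, minimum total 15), the quasi-likelihood test and Benjamini-Hochberg adjustment at 0.05. Nitrogen excess was tested within each tissue over 6 libraries. Root against shoot and the interaction used 1 fit of 4 groups over 12 libraries, whose scale gives the printed CPM. Families were summed by the number named most often. Every miR171 sequence with at least 10 counts in a library is named, and for each leading strand the 3 most similar other sequences. The scripts were checked on simulated data. Shares carry 95% Wilson intervals, and the limit for a count of 0 is 3 counts.

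Tried beside this were equal totals, DESeq2's size factors and its test (1.42.0), no filter, at least 20 counts in 3 libraries, a replicate block, a term for the naming series, series B by itself, and fits without single libraries or without both placed-apart ones. The fits over 10 libraries with their own alternatives, and the common 12-library level scale, were chosen after the data were seen. Members and lists were chosen with earlier results of these data known. The labels do not say that a replicate number marks a shared batch or plant. Deviations from the group means of same-numbered libraries correlated above 0.1 in all 3 pairs only between shoot and root of nitrogen-excess plants (0.49, 0.19 and 0.34 over 177 sequences). p-values measure the spread between these libraries.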

Additional observations from a re-analysis of the deposited data

Results flagged for a closer look

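6 values of 16 groups of 6 libraries tested (7 sequences and the 3p share in each tissue) stood apart from the other 5 by more than Dixon's critical value of 0.625. For independent groups of normal values, about 1 in 20 would exceed it. The 16 groups share their libraries, and the 3p share sums the same sequences, so that rate cannot be set against the 6 flagged values. All 6 flagged values belong to the library labelled nitrogen-excess shoot 3 or the library labelled control root 3, which also lay with the other tissue by their other miRNAs.

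Among the shoots, the library labelled nitrogen-excess shoot 3 was far above the others for ata-miR171a-3p, at 12.35 on the log2(CPM + 1) scale, and for osa-miR171f-5p, at 3.29, which is 2 counts. It was far below them for ata-miR171c-5p, at 0.0, and had 93.4% of its miR171 counts on the 3p arm. Among the roots, the library labelled control root 3 was far below the others for ata-miR171a-3p, at 7.01 on the same scale, and had 12.4% of its miR171 counts on the 3p arm.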

How the results depend on the processing

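Depth limits the 3 least abundant sequences, with at most 163 counts in a library, and nitrogen-excess shoot 3 had the fewest counts. With equal totals the sign turned for ata-miR171a-3p (0.73) and the family (0.27) under nitrogen excess in root, for the family in shoot (-0.24), for hvu-miR171-3p between tissues (-0.48 over 12 libraries, -0.59 over 10) and for the hvu-miR171-5p interaction (-0.27). The medians of all tested moved with this scaling, from -0.27 to 0.095 for sequences in root, from 0.20 to -0.48 between tissues, from -0.12 to 0.27 for families in root and from 0.60 to -0.24 in shoot. With the replicate block it turned for ata-miR171a-3p in root (0.65) and the hvu-miR171-5p interaction (-0.037). In series B alone it turned for ata-miR171a-3p (0.74) and the family (0.46) in root, hvu-miR171-3p in shoot (0.21) and the hvu-miR171-5p interaction (-1.52). The osa-miR171e-5p interaction turned with no filter (0.12), at least 20 counts in 3 libraries (0.085), the series term (0.66) and without both placed-apart libraries (0.63). None of these signs belonged to a called value, and beyond the shift of the medians the cause was not tested.

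The number of miR171 sequences called between tissues, 1, became 0 with equal totals, the block or the series term. It became 2 with no filter (38 of 697 sequences called) and 4 without both placed-apart libraries (60 of 183). In control plants, 0 became 2 with no filter (21 of 697), 1 with DESeq2 (23 of 177) and 2 without both libraries (41 of 183), and in nitrogen-excess plants 2 without both (35 of 183). Without both libraries, the calls between tissues and in each condition include osa-miR171f-5p, which passed the filter on low counts through root libraries alone. Its calls are a description and no test. In shoot under nitrogen excess, 0 became 1 with DESeq2 (8 of 148). The family between tissues was called without both libraries (1.55), and over 10 libraries not with equal totals (0.48) or no filter (1.47).

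Leaving out single libraries gave 0 to 4 miR171 calls between tissues over 12 libraries, 1 to 5 over 10 and 0 to 2 in control plants, while calls among all sequences ran from 0 to 54 of 186 (without control root 3), 45 to 70 and 0 to 26. These counts include osa-miR171f-5p. The family ran from 0.80 to 1.91 over 10 libraries, from -0.21 to 0.49 in shoot and from -0.77 to 0.068 in root. In root, ata-miR171a-3p ran from -0.98 to 0.34, osa-miR171e-5p from -2.51 to 0.13 and hvu-miR171-5p from -2.92 to 0.45. hvu-miR171-3p ran from -1.003 to 0.32 in shoot and from -0.054 to 1.17 between tissues. The interaction ran from -2.07 to 1.41 for hvu-miR171-5p and from -1.96 to 1.68 for osa-miR171e-5p.

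Leaving out members that lie inside a longer member, or whose names give another family too, could not change the arm shares, because those members had 0 counts. Apart from the pair of groups in the methods, same-numbered libraries correlated from -0.25 to 0.51, with at least 1 of the 3 pairs below 0.1 in each. The block changed no other call of a miR171 sequence than those given with their values.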
